A study of Mus musculus with 18 samples.

Results

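The C-type lectin (Clec) genes were followed through microglia and astrocytes sorted from the brains of control mice and of mice with a microglial Tgfb1 deletion. All rows whose symbol is Clec followed by a number, letters and an optional number were taken, which gave 33 of the 35869 gene symbols in the files. Of these, 18 reached 1 TPM (a gene's share of all transcripts, corrected for its length and scaled to a fixed sum) in at least 4 of the 17 libraries used and are described here, as 17087 genes of the series did. Of the 15 others, 11 never reached 1 TPM and Clec3a was listed at 0 in every library.

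Many C-type lectins are surface receptors of myeloid cells that recognise sugars, lipids or proteins of microbes and of dying cells through a shared lectin-like fold. Activating members, such as the dectins, signal to the kinase Syk and the adaptor Card9, either by a motif of their own or through the partner chains Fcer1g and Tyrobp, whereas inhibitory members recruit the phosphatases Ptpn6 and Ptpn11. In the brain, Clec7a (dectin-1) is best known as a gene that microglia turn on in disease and in development.

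Every mouse was of the C57BL/6 strain, carried Cx3cr1CreERT2 and received 5 oral doses of tamoxifen at 180 mg/kg. The mice called KO here additionally had the Tgfb1fl/fl alleles, and those called control did not (labelled WT). Cells were freed from brain tissue with enzymes in the presence of inhibitors and sorted by flow cytometry, which does not show how pure each sort was. The recombinase is made by microglia and by other macrophages that express Cx3cr1, so KO names the animal and not a deletion seen in every cell. Microglia were analysed from 4 controls (animals 1, 2, 4 and 5) and 4 KO mice, and astrocytes from 5 controls and 4 KO mice, with 1 library per animal and sort. Of the 18 libraries, 1 was left out because its title names an astrocyte sort and its sample code a microglial one. P-values measure the spread between the libraries of a group, 1 per animal. Same-numbered sorts of a genotype came from the same mouse. Comparisons across the sorts treat them as independent unless a block by animal is named.

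Tgfb1 was at 3.4, 2.9, 2.9 and 2.8 TPM in control microglia and at 1.8, 1.3, 1.7 and 2.0 TPM in KO microglia, without overlap (limma log2 difference -0.57, adjusted p = 0.0258). The summed level of 14 homeostatic microglial markers was 51137 to 55263 TPM in control microglia and 788 to 1176 TPM in control astrocytes, and that of 12 astrocyte markers was 373 to 691 TPM and 26606 to 29183 TPM. The astrocyte sort also held RNA of other cells, with oligodendrocyte markers summing to 4623 to 6982 TPM in control and 6646 to 16870 TPM in KO astrocytes, and mural markers to 209 to 3234 TPM and 774 to 9689 TPM, and their part in the levels of Clec genes read from that sort was not tested. TPM keeps no read depth, so no counting interval is given. Control animals 1 and 2 and all KO animals had Xist RNA, whereas control animals 3, 4 and 5 had Ddx3y RNA instead, so each kind of control was also used alone.

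The family is clustered in the genome. Of the 33 members, 9 lie side by side at chr6:122921848-123289870, a 368.0-kb stretch with 0 other protein-coding genes counted, here called the Clec4 locus. A further 13 lie at chr6:128652416-129472779, an 820.4-kb stretch shared with 7 other coding genes, here called the Clec2 to Clec7a locus (GENCODE M21, GRCm38). Other coding genes were counted only if they had values in these data and lay wholly within the stretch. The described members of the Clec4 locus are, in chromosomal order, Clec4a1, Clec4a3, Clec4a4, Clec4b1, Clec4a2 and Clec4n. Those of the Clec2 to Clec7a locus are Clec2h, Clec2i, Clec2d, Clec12a, Clec1a and Clec7a. Clec5a lies alone at chr6:40574894-40585821 on the minus strand, and Clec10a at chr11:70156197-70170834 on the plus strand.

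Promoter windows of 250 bases before the annotated start were read from RefSeq (GRCm38.p6) for 13 of the 18 described members, all but Clec4a4, Clec4n, Clec1a, Clec3b and Clec10a. The windows below are those of the member with the highest level in KO microglia, of 2 further members that rose there and of the 1 member that fell, because these 4 genes carry the contrast described in the next paragraphs. Capitals mark GAGGAA or its reverse complement TTCCTC, the short core shared by many sites of ETS factors, a class that includes the macrophage regulator PU.1. Each window is printed 5′ to 3′ on the strand of its gene.
Clec4a1, chr6:122921598-122921847, plus strand: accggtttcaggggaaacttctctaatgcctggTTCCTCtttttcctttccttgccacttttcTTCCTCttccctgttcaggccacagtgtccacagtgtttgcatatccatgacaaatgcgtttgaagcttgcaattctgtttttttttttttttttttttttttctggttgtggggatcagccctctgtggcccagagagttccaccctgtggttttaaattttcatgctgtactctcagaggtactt
Clec4b1, chr6:123049712-123049961, plus strand: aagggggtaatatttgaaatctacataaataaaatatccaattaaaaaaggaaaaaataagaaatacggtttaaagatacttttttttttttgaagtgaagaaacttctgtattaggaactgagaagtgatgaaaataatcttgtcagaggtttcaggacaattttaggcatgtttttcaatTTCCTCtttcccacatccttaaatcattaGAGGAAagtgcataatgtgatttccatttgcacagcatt
Clec7a, chr6:129472780-129473029, minus strand: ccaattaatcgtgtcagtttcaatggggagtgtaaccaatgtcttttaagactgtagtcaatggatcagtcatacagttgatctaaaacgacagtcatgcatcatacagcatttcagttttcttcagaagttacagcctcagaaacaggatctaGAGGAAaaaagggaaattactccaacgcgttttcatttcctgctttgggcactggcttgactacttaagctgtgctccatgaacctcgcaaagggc
Clec5a, chr6:40585806-40586055, minus strand: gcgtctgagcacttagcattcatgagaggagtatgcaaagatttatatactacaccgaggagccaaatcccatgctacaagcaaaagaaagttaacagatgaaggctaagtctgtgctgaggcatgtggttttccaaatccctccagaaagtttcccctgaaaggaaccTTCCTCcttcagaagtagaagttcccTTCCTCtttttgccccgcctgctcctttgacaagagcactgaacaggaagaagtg
GAGGAA was found on either strand in the windows of 9 of the 13 members, against 25.9% of the 27025 genes in the table, some with several windows. The 9 include Clec5a, which fell in KO microglia, 5 members that rose there (Clec4a1, Clec4a3, Clec4b1, Clec12a and Clec7a), and Clec11a, Clec14a and Clec16a, which were low in microglia. GAGGAA was absent from the windows of Clec4a2, Clec2d and Clec2i, which also rose, and of Clec2h. The longer letters GAGGAAGT, which contain it, were in 0 of 13 members (2.79% of genes). On both strands, TGANTCA was found in 2 members (7.82% of genes), the interferon-stimulated response element in Clec4b1 and Clec2d (3.46%), TTGNNCAA in Clec12a (6.51%), and TCANGTGA (3.98%) and AGCCAGACA (0.340%) in none. The longest run common to the windows of any pair of members was 17 bases, shared by the neighbours Clec4a1, where it begins at position -222 from the start, and Clec4a3, where it begins at position -55:
shared run: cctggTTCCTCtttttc
The member windows had a median GC content of 43.8%, against 52.4% in all 32851 windows.

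The first comparison asked how these receptors differ between microglia of KO and of control mice. Most of the members that could be tested were higher in KO microglia, led by Clec4a1, Clec4n and Clec4b1 of the Clec4 locus, while Clec5a was lower. Of the 13 described members that could be tested (at least 1 TPM in 4 of the 8 libraries), 11 rose, 1 fell and 1 did not pass, where 28.4% of the 13054 genes tested were called (14.2% higher and 14.2% lower; limma with Benjamini-Hochberg adjustment over all genes). The median difference was 1.89 on the log2(TPM + 1) scale, against 0.0040 for all genes tested. All 12 called members had groups that did not overlap, 11 higher and 1 lower, which held for 14.8% and 15.7% of all genes. Without the deletion, 11 of the 13 were at 1 TPM or more in all 4 control libraries, the exceptions being Clec2i and Clec1a.

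The Clec4a genes encode receptors of the dendritic cell immunoreceptor (DCIR) type, some of which carry an inhibitory motif. Clec4a1 was at 44.2, 73.4, 60.9 and 97.6 TPM in control microglia and at 1005.4, 1170.8, 1290.8 and 1179.9 TPM in KO microglia. Every KO library lay far above every control library, and the mean was 16.8-fold higher (log2 difference 4.10, SE 0.21, adjusted p = 9.16e-07). Its neighbour Clec4a3 was the most abundant member in controls, at 223.6, 171.7, 292.2 and 305.5 TPM, and reached 669.5, 674.7, 661.9 and 668.9 TPM in KO microglia. The KO libraries of Clec4a3 were nearly identical while the control libraries spread (668.8 ± 5.26 against 248.3 ± 62.4 TPM, SD, n = 4 each). Its rise was smaller, at 2.69-fold (log2 1.46, SE 0.17, adjusted p = 0.000145).

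Clec4a2 encodes DCIR itself, which recruits phosphatases. It was at 31.8, 39.2, 42.3 and 47.9 TPM in controls and at 107.1, 105.5, 102.3 and 101.0 TPM in KO microglia, without overlap. It rose 2.58-fold (log2 1.36, SE 0.13, adjusted p = 3.75e-05). Clec4a4 (DCIR2), known from a subset of dendritic cells, went from 9.3, 4.5, 5.4 and 9.1 TPM to 20.4, 22.2, 20.1 and 20.2 TPM. All 4 KO libraries lay above the controls (log2 1.48, SE 0.22, adjusted p = 0.00076). Of its 61-base stretches of spliced sequence, the read length used, 14.4% were shared with Clec4a2, so reads could be split between the pair. No such stretch of Clec4a1 or Clec4a3 was shared with another gene.

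Clec4n encodes dectin-2, a receptor for mannan-rich ligands that signals through Fcer1g. It was at 19.1, 19.1, 11.1 and 19.4 TPM in controls and at 284.3, 328.1, 280.8 and 213.9 TPM in KO microglia. The groups were far apart, with control animal 4 the lowest library, and Clec4n rose 16.1-fold (log2 3.95, SE 0.20, adjusted p = 8.28e-07). Clec4b1 (DCAR), another receptor that pairs with Fcer1g, was close to the filter in controls, at 1.1, 3.2, 1.7 and 1.6 TPM, and reached 82.8, 64.2, 45.2 and 54.7 TPM. At 32.5-fold it had the largest ratio of means in the family and ranked 21 of the 13054 genes tested by log2 difference (4.45, SE 0.25, adjusted p = 1.54e-06). Clec4a1 and Clec4n ranked 32 and 46 on the same scale.

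Clec7a encodes dectin-1, the receptor for beta-glucans, and carries its own activating motif. It was at 24.4, 24.5, 15.9 and 24.6 TPM in control microglia and at 97.2, 98.7, 80.3 and 65.5 TPM in KO microglia. All KO libraries lay above all controls and the mean was 3.82-fold higher (log2 1.89, SE 0.18, adjusted p = 4.91e-05). Clec5a encodes MDL-1, an activating receptor that signals through Tyrobp, and moved the other way. It was at 201.1, 134.2, 196.7 and 187.2 TPM in controls and at 75.4, 75.6, 69.8 and 58.5 TPM in KO microglia. The mean was 2.58-fold lower and again no library overlapped (log2 -1.34, SE 0.15, adjusted p = 0.000118). The activating receptors of the family thus did not share a direction.

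Clec12a encodes an inhibitory receptor that senses dead cells and urate crystals. It was at 8.4, 5.5, 2.5 and 6.4 TPM in controls and at 63.7, 61.4, 60.1 and 56.0 TPM in KO microglia, 10.6-fold higher by the mean (log2 3.28, SE 0.27, adjusted p = 1.63e-05). Clec10a encodes MGL1, a macrophage receptor for galactose-type sugars, and went from 6.3, 11.1, 7.2 and 18.9 TPM to 57.7, 65.9, 63.4 and 62.4 TPM. Both genes were spread in controls and tight in KO microglia, without overlap (Clec10a log2 2.53, SE 0.28, adjusted p = 0.000122). Clec10a shares 6.34% of its 61-base stretches with its paralog Mgl2, which also rose.

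The Clec2 genes encode ligands of receptors on natural killer cells. Clec2d was at 3.8, 4.1, 1.4 and 6.9 TPM in controls and at 87.6, 50.8, 40.7 and 30 TPM in KO microglia. Its lowest KO library was still above every control, although the KO libraries varied more than those of any member with a similar level (log2 3.41, SE 0.40, adjusted p = 0.00017). Clec2i was low throughout, at 1.4, 0.9, 0.3 and 2.5 TPM against 5.1, 3.7, 3.1 and 3.4 TPM (log2 1.16, SE 0.30, adjusted p = 0.0163). Its call was lost without KO animal 1 (adjusted p = 0.0527) and against control animals 4 and 5 alone (adjusted p = 0.0545). Clec2i also overlaps the abundant gene BC035044 on the opposite strand, and the strand setting of the counting is not given in the sources used here. Clec1a, better known from endothelium, was at 2.7, 1.7, 0.6 and 0.0 TPM against 1.1, 0.8, 1.3 and 0.0 TPM, with overlapping groups (log2 -0.22, 95% interval -1.17 to 0.73, adjusted p = 0.753).

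**Figure D1:**
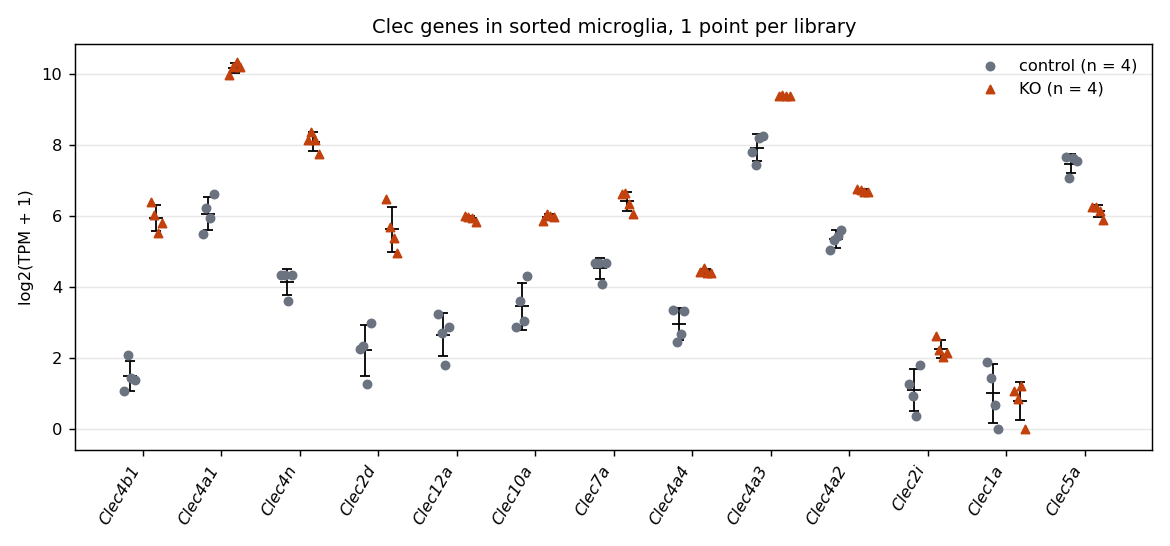
Level of the 13 tested Clec genes in each microglial library, as log2(TPM + 1), with control libraries as grey circles and KO libraries as orange triangles (n = 4 each) and bars for the mean and SD. The 11 genes from Clec4b1 to Clec2i have KO libraries above all controls, Clec1a overlaps and Clec5a is lower.

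The rises changed the make-up of the family. The 33 members summed to 579.9, 494.5, 642.6 and 732.9 TPM in control microglia and to 2565, 2730, 2726 and 2522 TPM in KO microglia. Since TPM is per length, the members can be ranked within a library. In controls Clec4a3 gave 40.1% ± 4.57 of the sum, Clec5a 29.5% ± 4.05 and Clec4a1 11.3% ± 3.34 (SD, n = 4). In KO microglia Clec4a1 led with 44.1% ± 3.80, followed by Clec4a3 with 25.4% ± 1.08 and Clec4n with 10.5% ± 1.5, and Clec5a had 2.65% ± 0.268. Clec5a went from the second to the sixth place by mean TPM. Clec7a, in contrast, kept a similar share, at 3.75% ± 1.07 and 3.24% ± 0.560.

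**Figure D2:**
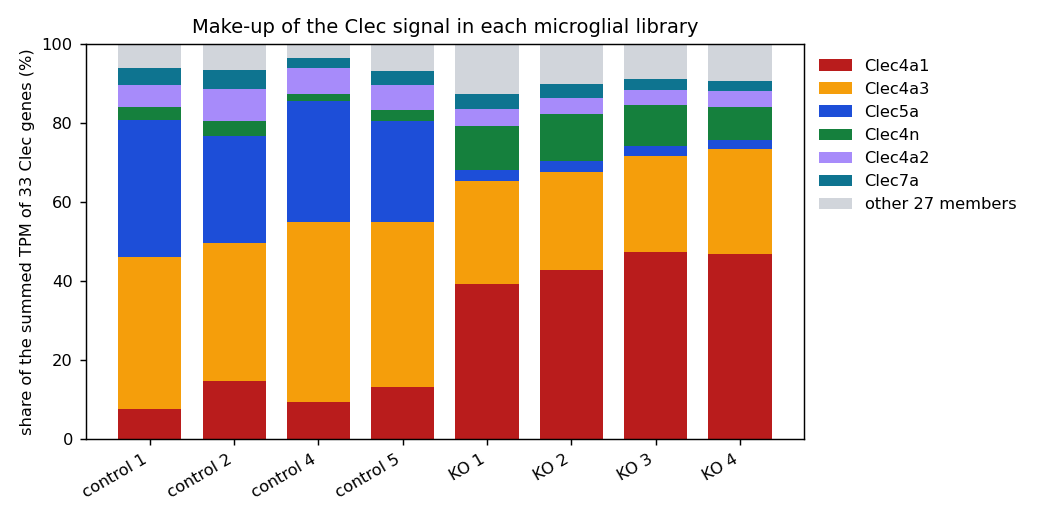
Share of the summed TPM of all 33 Clec genes that each of 6 members and the other 27 together take, in percent, 1 bar per microglial library (4 control and 4 KO). Clec4a1 widens from 7.62% to 14.8% in controls to 39.2% to 47.4% in KO libraries, while Clec5a narrows.

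Within the Clec4 locus the size of the rise did not follow the order of the genes. Clec4a1, Clec4b1 and Clec4n had log2 differences of 3.95 to 4.45, and Clec4a3, Clec4a4 and Clec4a2, which lie between them, of 1.36 to 1.48. The 3 remaining members of this locus were low in every library. Clec4d (MCL), a partner of Mincle, was at 0.0, 0.0, 0.2 and 0.7 TPM in controls and at 2.0, 2.0, 1.0 and 0.8 TPM in KO microglia, too low for the filter. Clec4e (Mincle) and Clec4b2 did not exceed 0.1 and 0.2 TPM in any library. In the Clec2 to Clec7a locus, 2 other coding genes were expressed. Cd69, a lectin-like activation marker of leukocytes, rose from 3.1, 0.0, 0.6 and 2.5 TPM to 4.9, 6.8, 5.9 and 3.6 TPM (log2 1.5, adjusted p = 0.0275). BC035044 had 220.6 ± 10.4 TPM in control and 211.4 ± 14.5 TPM in KO microglia (SD, n = 4 each), and its groups overlapped (log2 -0.06, adjusted p = 0.635).

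**Figure D3:**
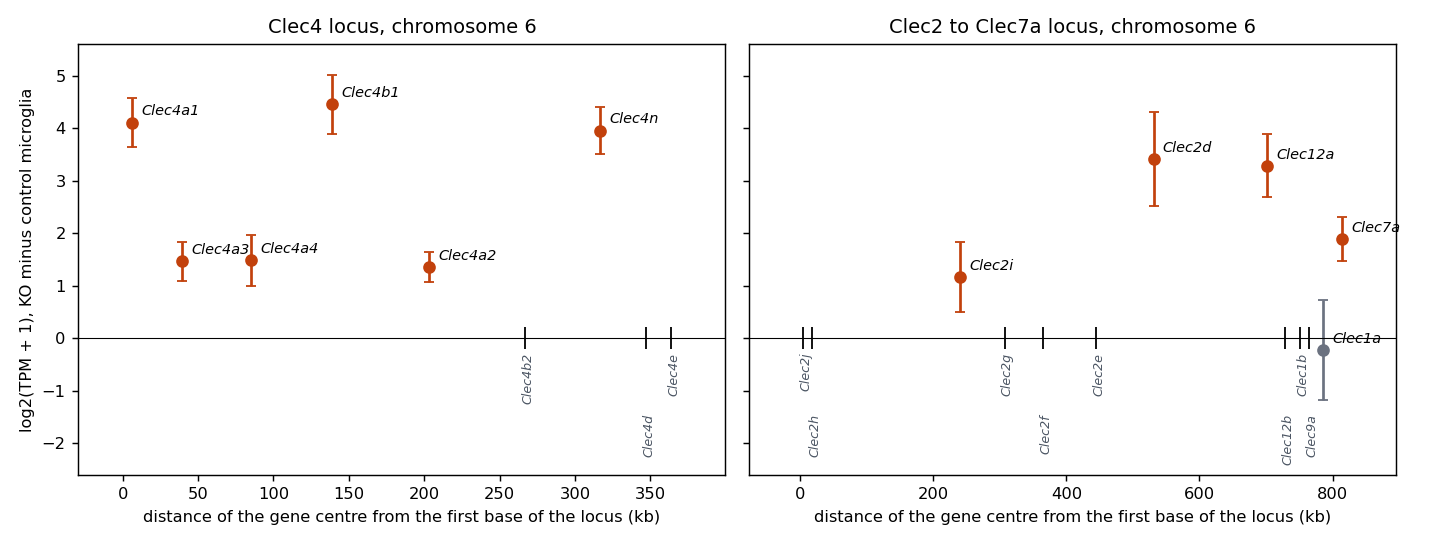
Log2(TPM + 1) difference between KO and control microglia, with its 95% interval, against the distance of each gene's centre from the first base of its locus, for the Clec4 locus (left) and the Clec2 to Clec7a locus (right). Orange points passed the test, grey points did not and ticks on the zero line mark only the position of members that were not tested, and in the Clec4 locus the 3 large rises lie apart from each other with smaller ones between them.

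Members outside these groups stayed low in microglia. Clec16a, an endosomal regulator of mitophagy that carries the family's name, was at 0.8, 0.8, 1.2 and 1.4 TPM in controls and at 0.8, 0.8, 1.1 and 0.7 TPM in KO microglia. Clec1b (CLEC-2), the podoplanin receptor of platelets, was at 0.0, 0.4, 0.1 and 1.0 TPM against 0.8, 0.9, 1.0 and 1.7 TPM. Clec9a, the receptor by which dendritic cells detect exposed actin, did not exceed 0.9 TPM. Clec2h, Clec3b, Clec11a and Clec14a were at or below 1.6 TPM in every microglial library. Of the rest, Clec2e and Clec2l did not exceed 1.1 TPM and Clec2f and Clec12b 0.3 TPM in any library, and Clec2g, Clec2j, Clec4f, Clec4g and Clec18a 0.1 TPM.

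Genes linked to the signalling of these receptors did not rise with them as a group. The list used holds genes that carry the signal and some that restrain it, such as Cd37, so its counts do not measure signalling. Of 48 genes of C-type lectin receptor signalling, 46 were tested in microglia, of which 5 rose, 18 fell and 23 did not pass, with a median difference of -0.15, where 14.2% of all genes tested rose and 14.2% fell. The partner chain Fcer1g was abundant in both groups, at 5969 ± 676 TPM in control and 7347 ± 621 TPM in KO microglia, and passed narrowly with overlapping groups (log2 0.30, adjusted p = 0.0499). Tyrobp, the partner of Clec5a, was at 4704 ± 824 and 5134 ± 442 TPM (log2 0.14, adjusted p = 0.476). Syk was at 12.1 ± 3.58 and 12.6 ± 2.39 TPM (log2 0.08, adjusted p = 0.82). Card9 fell from 4.25 ± 0.896 to 2.43 ± 0.479 TPM (log2 -0.61, adjusted p = 0.0362; SD, n = 4 for all). These 4 core genes were named after their values were seen.

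By the rule of smallest p, the named genes of this list were mostly lower. Plcg2, the phospholipase downstream of Syk, fell from 124.8, 147.3, 185.2 and 140.7 TPM to 37.8, 49.4, 44.2 and 49.6 TPM (log2 -1.70, adjusted p = 1.92e-05). Rasgrp3, which activates Ras, fell by 2.91 on the log2 scale from a mean of 74.3 to 9.18 TPM (adjusted p = 5.62e-06). The tetraspanin Cd37, which is known to restrain dectin-1 at the surface, fell by 1.88 (adjusted p = 1.01e-06), while the tetraspanin Cd63 rose by 1.26 (adjusted p = 2.61e-06). The NF-kB subunit Nfkb1 fell by 1.24, the inflammasome adaptor Pycard by 0.92 and the exchange factor Vav1 by 0.90, whereas its relative Vav3 rose by 2.45 from a mean of 0.300 to 6.08 TPM. Those 4 had adjusted p of 0.000282 or less. Of those that did not pass, Hcst and Rela had the smallest p, Hcst with 0.63 (adjusted p = 0.0504), and Rela with -0.33 (adjusted p = 0.0579).

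**Figure D4:**
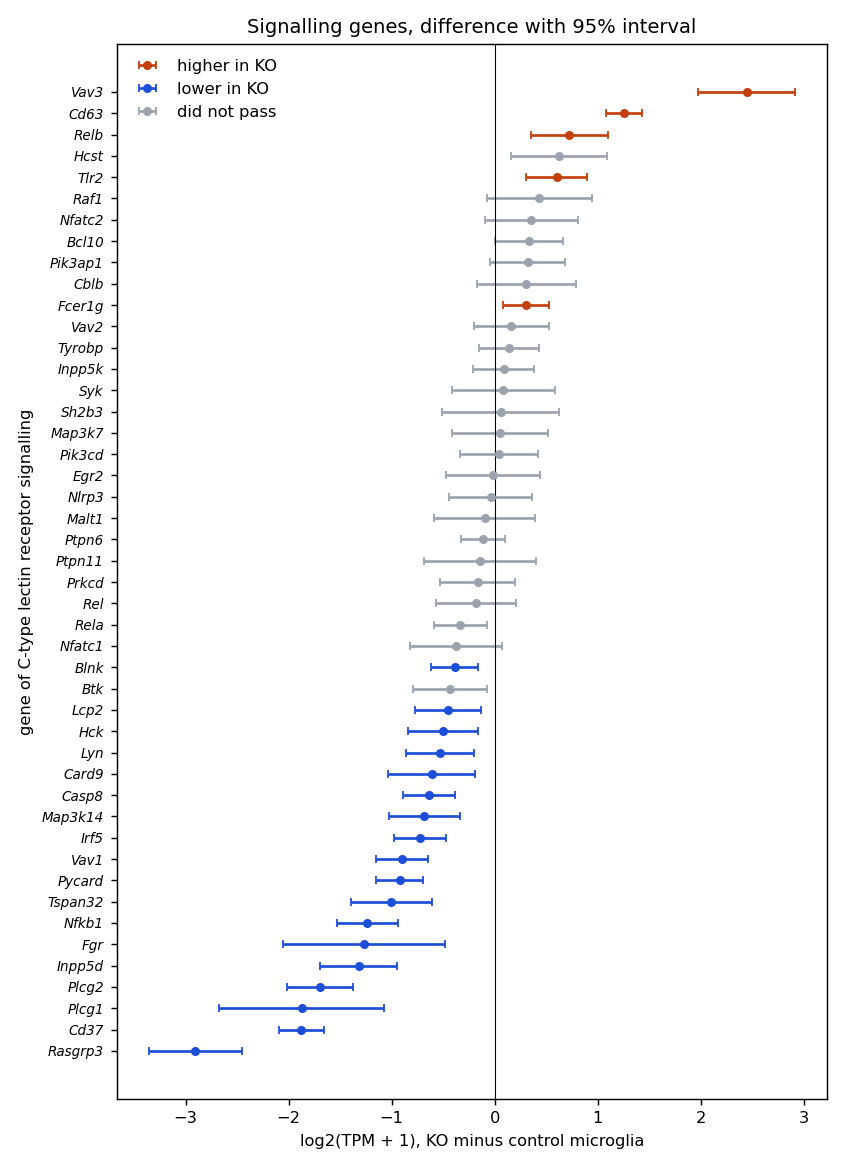
Log2(TPM + 1) difference between KO and control microglia for the 46 tested genes of C-type lectin receptor signalling, with 95% intervals. Orange marks the 5 genes higher in KO, blue the 18 lower and grey the 23 that did not pass.

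Lectin-like genes without a Clec symbol were mixed. Of 55 such genes, 17 were tested in microglia, of which 8 rose, 5 fell and 4 did not pass, with a median difference of 0.59 against 0.0040 for all genes, of which 28.4% were called. The rises included Cd72 (4.09, adjusted p = 1.54e-06), an inhibitory receptor, Mrc1 (3.98, adjusted p = 4.14e-06), the macrophage mannose receptor, Asgr2 (3.72) and Mgl2 (3.13), which bind galactose-type sugars, and Thbd (1.95) and Cd44 (1.57). Asgr2 was at 2.3, 0.1, 2.0 and 1.9 TPM in controls and at 30.2, 26.6, 32.8 and 32.1 TPM in KO microglia, without overlap. Klrd1, a subunit of natural killer receptors, fell by 2.76 from a mean of 6.40 to 0.0750 TPM (adjusted p = 6.38e-06), and the hyaluronan receptor Layn fell by 1.48. Colec12 (-1.02, adjusted p = 0.0627) and Fcer2a (-0.24, adjusted p = 0.293) had the smallest p among those that did not pass. All 8 genes named as called here had groups that did not overlap.

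Markers of some other myeloid cells also changed, some higher and some lower, in a comparison that called 14.2% of all genes higher and 14.2% lower. Of 18 border-associated macrophage markers, 16 were tested, of which 10 rose, 3 fell and 3 did not pass, and their sum was 3806 to 4704 TPM in control and 10933 to 11909 TPM in KO microglia, with none at 0 in either group. Most of the control sum came from Fcrls, which is also on the list of homeostatic microglial markers. Fcrls fell from 2989 to 3265 TPM in control to 1512 to 1816 TPM in KO microglia. Among the border-associated macrophage markers Ms4a7 rose by 4.79 on the log2 scale, while Lyve1 was at 18.7, 4.4, 31.9 and 75.1 TPM in controls and at 8.6, 9.7, 5.4 and 12.1 TPM in KO microglia (adjusted p = 0.212). Monocyte markers summed to 10 to 19.2 TPM and 52.7 to 61.2 TPM, with 2 of 4 tested higher and 1 lower, and Chil3 listed at 0 in all microglial libraries of both groups. The rise of this sum came from Itga4 (mean 0.85 to 25.35 TPM) and Ms4a4c (2.625 to 24.825 TPM). Ccr2 instead fell from a mean of 7.075 to 2.475 TPM, and Ly6c2 had a mean of 0.525 TPM in both groups. Dendritic cell markers summed to 1296 to 2425 TPM and 3286 to 4374 TPM, with 2 of the 9 tested higher, 2 lower and 5 not called. Here the sum rose through H2-Ab1 (mean 1075.6 to 2298.1 TPM) and Bst2 (469.9 to 1338.9 TPM). Cd209a instead fell from a mean of 28.325 to 6.125 TPM. Siglech, also on the list of homeostatic microglial markers, fell from a mean of 314 to 101 TPM. All 14 homeostatic microglial markers fell, their sum going to 10821 to 12099 TPM. In bulk libraries fewer cells of a type and less RNA per cell cannot be told apart, and the part of these markers in the Clec results was not tested.

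Neutrophil markers summed to 28.1 to 71.6 TPM in control and 9.5 to 11.5 TPM in KO microglia, with Cxcr2 and Ly6g at 0 in both. Most of this was Csf3r, at 28 to 35.5 TPM in control and 9.1 to 11.4 TPM in KO microglia. The 71.6 TPM were those of control animal 2, which also had S100a8 at 17.4 TPM and Retnlg at 14.4 TPM. Lymphocyte markers summed to at most 16.1 TPM and endothelial markers to at most 108.2 TPM in any microglial library. Platelet markers summed to 131.3 to 227.4 TPM and 2409.7 to 3134 TPM. That list shares Pf4, which rose by 4.14, with the border-associated macrophages, while its member Gp9 fell by 2.94.

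The next comparison, between the 2 sorts of control mice, shows where each member is expressed without the deletion. Of 14 members tested, 11 were higher in microglia, 1 was lower and 2 did not pass, where 65.7% of the 15332 genes tested were called (26.2% higher and 39.5% lower). The groups did not overlap for 9 of the higher members and for the lower one, against 22.6% and 33.8% of all genes. Of those 9, however, all but Clec10a were under 1 TPM in every control astrocyte library and passed the filter through the microglia alone. The lower member likewise passed through the astrocytes alone. For these 8 and for the lower member a difference was thus fixed by the filter, and the counts and median are a description only. The member median was 2.96, against -0.19 for all genes, and quantile normalization moved the latter to 0.11 and the calls of all genes from 4016 higher and 6062 lower to 5534 and 4850. Clec4a3 (7.75, SE 0.19, adjusted p = 1.98e-10) and Clec5a (7.18, SE 0.21, adjusted p = 4.85e-10) differed most. Clec4a3 was at 0.1, 0.1, 0.4, 0.1 and 0.0 TPM in control astrocytes. Clec7a was listed at 0 in all 5 of them. Clec4b1 and Clec2d passed with overlapping groups (1.15, adjusted p = 0.00597, and 1.69, adjusted p = 0.00242).

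The 1 member lower in microglia was Clec3b. It encodes tetranectin, a secreted protein that binds plasminogen, and was at 7.6, 13.7, 6.5, 9.6 and 13.7 TPM in control astrocytes and at most 0.8 TPM in control microglia (log2 -3.22, SE 0.27, adjusted p = 2.00e-06). No control microglial library reached 1 TPM, so Clec3b passed the filter through the astrocytes alone. Its direction was thus fixed by the filter, and these values are a description only. Clec16a was near 1 TPM in both sorts (0.03, adjusted p = 0.897), and only with quantile normalization, among the settings tried, was it called (0.78, adjusted p = 0.000668). Clec1a did not pass (0.34, 95% interval -0.51 to 1.20, adjusted p = 0.454). Clec11a, which encodes the growth factor osteolectin, was at 6.2, 1.3, 0.9, 0.7 and 3.8 TPM in control astrocytes and at most 0.6 TPM in control microglia. Clec14a, an endothelial gene, was at 0.0, 3.1, 1.3, 0.9 and 1.0 TPM in control astrocytes. Clec11a and Clec14a were below the filter of this comparison.

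Astrocytes do not make the recombinase, and few members were high enough there to be tested between KO and control mice. Of 5 members tested with limma, 0 were called, where 0.00657% of the 15231 genes tested were. An unadjusted p under 0.05 was found for 2 of the 5, and for 12.7% of all genes. Clec4a1 was at 0.0, 0.0, 0.0, 0.9 and 0.0 TPM in controls and at 12, 1.5, 3.9 and 1.6 TPM in KO astrocytes. These groups did not overlap, but Clec4a1 passed the filter through the 4 KO libraries alone, which fixes that, so the 2.94% of all genes without overlap in this direction is no measure for it (log2 1.99, SE 0.47, adjusted p = 0.250). In a fit over all 4 groups, with a shared spread, limma called Clec4a1 (1.99) and Clec4a3 (1.63), both with an adjusted p of 0.0341. That fit called 0.515% of 17087 genes in this comparison. Both members were highest in KO astrocyte library 1. Clec4a3 was at 7.9, 0.7, 2.1 and 2.2 TPM in KO astrocytes, above the 0.4 TPM that no control exceeded, but below the filter within this cell type.

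Clec14a was at 9.2, 2.7, 6.4 and 1.2 TPM in KO astrocytes and overlapped the controls (1.28, SE 0.50, adjusted p = 0.353). Clec3b was at 64.1, 4.2, 9.3 and 6.0 TPM, with 1 library far above the rest, and its difference of 0.21 (adjusted p = 0.913) became -0.58 without that library. Clec11a (0.02, 95% interval -1.003 to 1.04) and Clec16a (0.0040, 95% interval -0.41 to 0.42) were centred near 0. Clec16a was the steadiest member across all 4 groups, with means of 1.05, 0.850, 1.02 and 1.00 TPM. The signalling list had 29 genes and the other lectin-like list 14 genes tested here, and 0 of each were called.

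KO astrocyte library 1 stood apart. It was the highest KO library for 15 of the 18 members. Over the 11 members whose mean in KO microglia reached 20 TPM, it had 0.859% to 2.87% of the mean of KO microglia (median 1.99%). The medians in KO libraries 2, 3 and 4 were 0.0723%, 0.385% and 0.383%. Border-associated macrophage markers summed to 183.6 TPM in that library and to 28.1, 65.9 and 38.1 TPM in the others, against 15.7 to 34.1 TPM in control astrocytes. Homeostatic microglial markers summed to 1320 TPM in it and to 663 to 967 TPM in the others, and endothelial markers to 872.5 TPM against 399 to 701 TPM. Mural markers were at 6424 TPM there and at 773.7, 9689 and 3666 TPM in the others. The part of these markers in the astrocyte values was not tested.

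**Figure D5:**
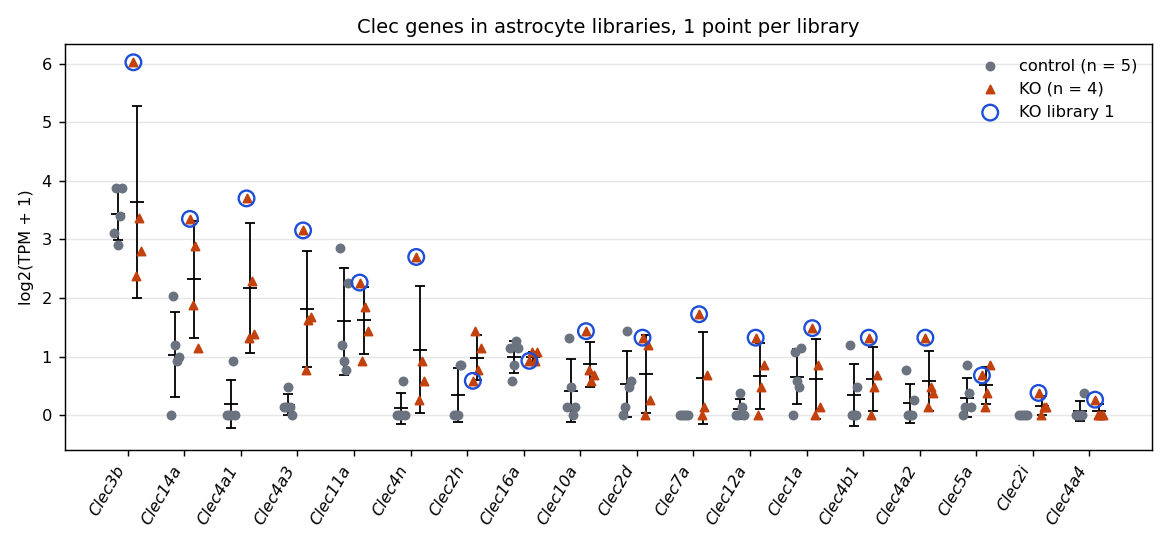
Level of the 18 described Clec genes in each astrocyte library as log2(TPM + 1), with control libraries as grey circles (n = 5) and KO libraries as orange triangles (n = 4), the first of which is ringed in blue, and bars for the mean and SD. The ringed library is the highest KO library for 15 of the 18 genes, Clec3b at 64.1 TPM among them.

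The KO effect in microglia minus that in astrocytes was tested as an interaction over all 17 libraries. Of the 18 members, 10 were higher and 1, Clec5a (-1.55, adjusted p = 0.000896), was lower, where 15.5% of 17087 genes were called (6.63% higher and 8.87% lower). The member median was 0.99, against -0.06 for all genes. Clec4b1 (4.16, adjusted p = 4.43e-06), Clec2d (3.24, adjusted p = 0.000827), Clec4n (2.95, adjusted p = 0.000855), Clec12a (2.72, adjusted p = 9.66e-05), Clec4a1 (2.12, adjusted p = 0.0157), Clec10a (2.08, adjusted p = 0.00314) and Clec4a4 (1.49, adjusted p = 0.000741) were higher and kept the call in each of the 17 fits that left out 1 library. Clec7a (1.26), Clec2i (1.00) and Clec4a2 (0.99) had adjusted p between 0.0391 and 0.0445. With the animal as a block they had 0.0595, 0.0693 and 0.0784 and 8 members were called. They also lost the call in 13, 13 and 12 of those fits. Clec4a3 did not pass (-0.17, adjusted p = 0.863), its difference being 1.46 in microglia and 1.63 in astrocytes. The astrocyte levels of the microglial members lie near or below the 1 TPM added before taking logarithms, and with 0.1 TPM added Clec4b1 alone was called (3.96, adjusted p = 0.0366).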

How the data were processed

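RNA-seq libraries of microglia and astrocytes sorted from mouse brain were sequenced in pairs, 61 bp from each end. As deposited by the authors, each file lists genes in TPM with 1 decimal, so that values under 0.05 are listed as 0. Per the submitters' processing notes, the tools included STAR 2.6.1e with featureCounts 1.6.2 on mm10, and for trimming cutadapt 1.9.1 and Trim Galore 0.4.2. Annotation and strand setting are not given in the sources used here, so values of overlapping genes are uncertain.

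Differences were computed from the deposited TPM as log2(TPM + 1), which understates changes of low genes, with limma 3.58.1 in R 4.3.3 (variance trend, two-sided, Benjamini-Hochberg adjustment over all genes at 0.05). Genes needed 1 TPM in 4 libraries of the fit. The fit was tested on simulated data. Plots were drawn with matplotlib 3.10.9 and tables made with numpy 2.4.6 and pandas 2.3.3 in Python 3.11.15. Gene positions came from GENCODE M21 and promoters from RefSeq GRCm38.p6.

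The members and gene lists were chosen with earlier results of these data known. All described members are named. Of the signalling and lectin-like lists, up to 8 genes with the smallest p that passed in microglia and the 2 with the smallest p that did not are named. The remaining called genes of the lectin-like list are named in addition. Of each marker list at most 2 genes were named by rule, and further ones where they weighed in a sum or went against it. Of the expressed neighbours up to 4 are named. Same-numbered microglia and astrocytes of a genotype come from the same animal (correlation of deviations 0.0300 to 0.189), and every such library correlated best with its own number. Numbers do not join KO and control animals. The alternatives were other pseudocounts, filters and scalings, no variance trend, a replicate block, 1 fit over all groups, each kind of control alone and each library left out.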

Additional observations from a re-analysis of the deposited data

Results flagged for a closer look

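Among 56 sets of 4 or 5 values, 8 held a library far from the others of its group. The rule used gives about 1 in 20 by chance only for independent, normally distributed values. The values here are rounded, low in many sets and drawn from the same libraries. The count is thus a description only, and no excess over chance can be read from it. Of the 8 libraries so marked, 3 were KO astrocyte library 1, with Clec3b at 64.1 TPM, Clec4n at 5.5 TPM and Clec10a at 1.7 TPM. Control microglia of animal 4 had the lowest Clec4n, at 11.1 TPM, and the lowest Clec7a, at 15.9 TPM, both dectins. The others were Clec4a4 at 22.2 TPM in KO microglia of animal 2, Clec3b at 1.3 TPM in KO microglia of animal 4 and Clec10a at 1.5 TPM in control astrocytes of animal 2.

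The KO effect differed between microglia and astrocytes, by the interaction test over all groups without a block, for 11 members. On the log2(TPM + 1) scale it was larger in microglia by 4.16 for Clec4b1, 3.24 for Clec2d, 2.95 for Clec4n, 2.72 for Clec12a, 2.12 for Clec4a1, 2.08 for Clec10a, 1.49 for Clec4a4, 1.26 for Clec7a, 1.00 for Clec2i and 0.99 for Clec4a2. For Clec5a the value was -1.55. With the animal as a block, since both sorts come from the same mice, Clec7a, Clec2i and Clec4a2 were not called (adjusted p = 0.0595, 0.0693 and 0.0784). Most of these members were near 0 TPM in astrocytes, so the astrocyte effect depends on the 1 TPM added, and with 0.1 TPM added Clec4b1 alone was called while Clec4a1, Clec4a2 and Clec7a changed sign.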

How the results depend on the processing

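In microglia, 11 or 12 members were called under every alternative, including each library left out, and only Clec2i lost its call. Between control sorts the count was 12 to 13, or 8 of 8 with a 5 TPM filter. In astrocytes 0 members were called, also with each library left out, except for 2 in 1 fit over all groups, which called 88 genes against 1. The interaction called 8 to 11 members with a library left out, 8 with the replicate block or no filter, and 1 with a pseudocount of 0.1 TPM, where Clec4a1 was at -0.29, Clec4a2 -0.033, Clec7a -0.16, Clec1a 0.028 and Clec3b 0.37. Its Clec4a3 became 0.84 (adjusted p = 0.0487) with a pseudocount of 5 TPM and 0.044 with quantile normalization, and its Clec3b 0.019 with median-of-ratios scaling and 0.077 with the replicate block. The block by replicate number, which does not join KO and control animals, took the microglial calls over all genes from 3711 to 2079, and by animal turned Clec16a between sorts to -0.0066. Clec1a in microglia became 0.44 against control animals 4 and 5. In astrocytes Clec11a and Clec16a became -0.028 and -0.0029 with a pseudocount of 5 TPM, -0.011 and -0.018 with median-of-ratios scaling, and -0.088 and -0.26 with quantile normalization. Clec11a was -0.41 against control animals 1 and 2, and Clec16a -0.085 against animals 3, 4 and 5. With a library left out, the ranges that crossed 0 were -0.55 to 0.076 for Clec1a in microglia, -0.20 to 0.33 for Clec11a, -0.58 to 0.63 for Clec3b and -0.098 to 0.071 for Clec16a in astrocytes, -0.072 to 0.097 for Clec16a between sorts, and -0.51 to 0.28 for Clec4a3, -0.51 to 0.11 for Clec1a and -0.48 to 0.74 for Clec3b in the interaction. None of these reversed values was called except Clec4a3 at 0.84, and the cause was not tested. Depth is unknown, and members under 1 TPM rest on values rounded to 0.1 TPM.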
